A study of Mus musculus with 3 samples.

Results

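Expression of 10 genes was examined in mouse macrophages: 9 encode proteins of the lysosomal membrane, and Npc2 encodes the soluble cholesterol carrier that works with one of them. The members were taken by gene symbol (Lamp1, Lamp2, Cd68, Cd63, Scarb2, Npc1, Npc2, Laptm5, Laptm4a and Mcoln1), and all 10 were found among the 55536 annotated genes of the tables. Total RNA depleted of ribosomal RNA was sequenced from the cytosol of macrophages grown from bone marrow (BMDM), primary cells of the mouse strain C57BL/6J. The libraries form 1 group, for which the label gives 100 ng/ml lipid A, the part of lipopolysaccharide that activates TLR4, for 0 minutes. It holds 3 libraries, labelled biological replicates 1, 2 and 3, each with its own biosample and all with 1 donor label; age and sex were not collected. Whether the replicates are separate mice or separate cultures is not labelled, so the SDs given here may be partly or wholly technical.

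The lysosome is the acid compartment in which macrophages digest what they engulf. Its limiting membrane is lined by heavily glycosylated proteins, chiefly LAMP-1 and LAMP-2, and also carries transporters that return the products of digestion to the cytosol, ion channels and receptors that bring enzymes in. Most of these proteins find the lysosome through short sorting signals in their cytosolic tails, which adaptor complexes read: a tyrosine-based signal or a dileucine signal, in most cases close to the carboxyl end. LAMP-1, LAMP-2 and CD68 share a fold, CD63 is a tetraspanin, SCARB2 is a receptor of the CD36 family that sorts cargo to the lysosome, NPC2 hands cholesterol to NPC1 for export, LAPTM4A and LAPTM5 are small multispanning proteins, and mucolipin-1 (Mcoln1) releases calcium.

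The coding ends of the main transcripts are shown first because they carry these signals and because the forms of Lamp2 differ there. Each line gives the last 45 coding bases before the stop codon, 5′ to 3′ on the coding strand, from the GENCODE M21 transcripts of mm10. Capitals mark codons that match the pattern of a tyrosine signal or of a dileucine signal. The tyrosine pattern is tyrosine, any pair of residues, then leucine, isoleucine, valine, methionine or phenylalanine. The dileucine pattern is aspartate or glutamate, any 3 residues, leucine, then leucine or isoleucine.
Lamp1: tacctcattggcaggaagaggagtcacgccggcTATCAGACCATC
Lamp2 (LAMP-2A form): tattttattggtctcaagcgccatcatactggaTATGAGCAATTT
Lamp2 (LAMP-2B form): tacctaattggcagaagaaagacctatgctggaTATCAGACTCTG
Lamp2 (LAMP-2C form): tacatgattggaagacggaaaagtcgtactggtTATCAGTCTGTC
Cd68: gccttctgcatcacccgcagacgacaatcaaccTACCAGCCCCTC
Cd63: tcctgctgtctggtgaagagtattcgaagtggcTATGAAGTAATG
Laptm5: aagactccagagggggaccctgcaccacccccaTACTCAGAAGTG
Scarb2: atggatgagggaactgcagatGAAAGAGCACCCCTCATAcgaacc
Mcoln1: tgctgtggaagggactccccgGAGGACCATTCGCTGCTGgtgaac
Laptm4a: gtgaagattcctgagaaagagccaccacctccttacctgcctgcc
They lie at chr8:13174511-13174555 on the plus strand for Lamp1, chr11:69664374-69664418 on the minus strand for Cd68, chr10:128912693-128912737 on the plus strand for Cd63 and chr4:130934503-130934547 on the plus strand for Laptm5. The end of Scarb2 (chr5:92444249-92446312, minus strand) and that of Mcoln1 (chr8:3514903-3515047, plus strand) each run across an intron, and that of Laptm4a lies at chr12:8938144-8938188 on the plus strand.

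In Lamp1, Cd68, Cd63, Laptm5 and all 3 forms of Lamp2 the tyrosine pattern was the last thing encoded, with 0 residues after it. Across 21666 protein-coding genes, taking the longest complete coding sequence of each, 17.9% held this pattern somewhere in the last 30 residues and 1.53% held it within 1 residue of the end. Scarb2, Npc1 and Mcoln1 held the dileucine pattern instead, each with 2 residues after it, against 3.46% of all genes with the pattern in the last 30 residues. Neither pattern was found in Laptm4a or in Npc2, whose protein is soluble. The tyrosine codon of the Laptm5 match follows proline codons, as does a tyrosine codon in the Laptm4a end. A match is a description of letters and not a measured site.

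All 10 members were well expressed. Each had a TPM (a transcript level scaled to transcript length and to a fixed library total) of at least 1 in all 3 libraries, as did 41.0% of the 22028 protein-coding genes. Their median TPM was 195, 144 and 162 in replicates 1, 2 and 3 with a mean of 167 ± 25.5 (SD, n = 3), beside 7.17 ± 0.728 for the 9023 detected protein-coding genes. The 10 genes together took 0.989, 0.876 and 0.913% of all expected counts. The highest member lay 39.9-fold above the lowest by mean TPM, and 5 members ranked in the top 1% of protein-coding genes.

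**Figure D1:**
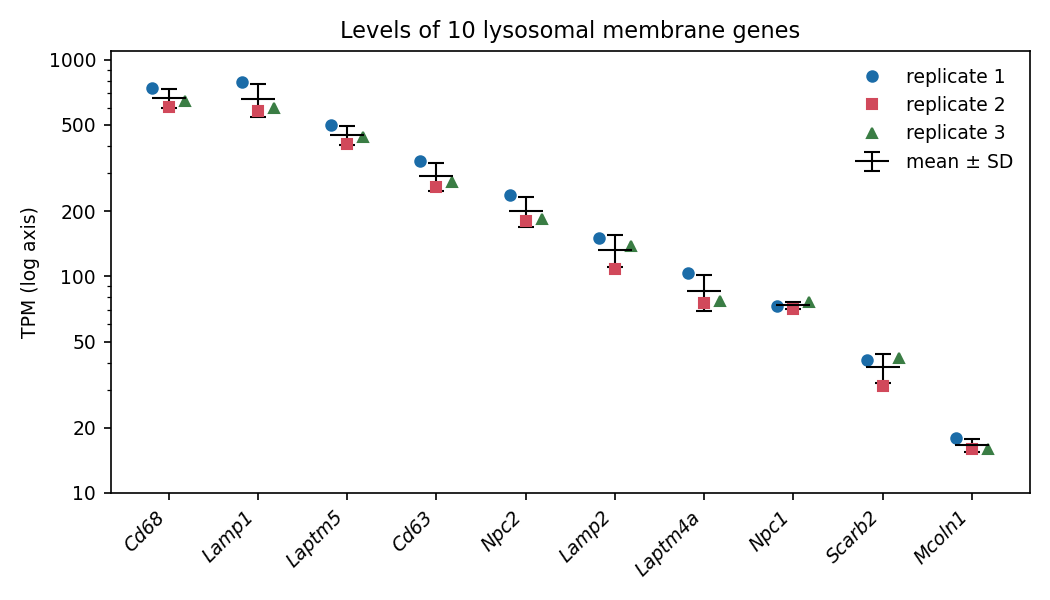
TPM of each member (log axis) in replicates 1, 2 and 3, with the mean and SD as a bar; members are ordered by mean TPM. The level falls from 663 for Cd68 to 16.6 for Mcoln1, and only Cd68 with Lamp1 and Laptm4a with Npc1 overlap as neighbours.

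Cd68 and Lamp1, both glycoproteins of the LAMP fold, were the most abundant members. Cd68 (ENSMUSG00000018774.13, chr11:69664213-69666153), the macrophage form of the LAMP fold, stood at a TPM of 737, 608 and 643 in replicates 1, 2 and 3. Lamp1 (ENSMUSG00000031447.7, chr8:13159161-13175338) stood at 788, 583 and 601. The ranges of Cd68 and Lamp1 overlapped, and Cd68 was the higher in 2 of 3 libraries, with a ratio of 0.935 to 1.07, so these genes could not be ordered. Both ranked between 29 and 33 among protein-coding genes in every library. By counts, which are not scaled to length, Lamp1 took 0.252 ± 0.0268% of all expected counts, the most of the 10, and Cd68 took 0.127 ± 0.00366%.

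Lamp2 (ENSMUSG00000016534.15, chrX:38401357-38456454), the X-linked partner of Lamp1, was lower, at 151, 108 and 139. Lamp1 exceeded Lamp2 in every library, and their values did not overlap. The other genes of the family were nearly absent: Lamp3, best known from mature dendritic cells, had 0, 0 and 1 counts and Lamp5, known from neurons and plasmacytoid dendritic cells, had 0 counts in each library. Seeing no read in a library leaves room for 3 counts there, which is 0.114, 0.0716 and 0.0533 CPM (counts relative to the library's total) in replicates 1, 2 and 3.

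Lamp2 was the member split most evenly between transcripts. Its 3 coding forms have 8 exons in common and each ends in a last exon of its own, which encodes the transmembrane part and the tail. The transcript with the tail of LAMP-2A (ENSMUST00000016678.13), the receptor of chaperone-mediated autophagy, ends at chrX:38405435-38405479. That of LAMP-2B (ENSMUST00000061755.8) ends at chrX:38421715-38421759, and that of LAMP-2C (ENSMUST00000074913.11) at chrX:38402142-38402186, all on the minus strand. Of the last 45 coding bases, LAMP-2A shares 22 with LAMP-2B and 23 with LAMP-2C, and LAMP-2B shares 30 with LAMP-2C.

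LAMP-2A and LAMP-2B transcripts were present at nearly equal levels by TPM. The LAMP-2A form stood at a TPM of 76.6, 54.8 and 62.1 in replicates 1, 2 and 3, and the LAMP-2B form at 73.3, 53.0 and 74.9. Their ranges overlapped, and the ratio of LAMP-2A to LAMP-2B was 1.04, 1.03 and 0.829. In the kallisto-format tables the ratio was 1.24, 1.30 and 1.01, so LAMP-2A led in replicates 1 and 2 in both formats, and the formats differed on the leading form in replicate 3 only. Replicate 3 had the lowest ratio in both. The LAMP-2C form was hardly present, at 0.52, 0.44 and 0.54 (48.0, 72.7 and 116 expected counts). It took 0.34, 0.40 and 0.39% of Lamp2 transcripts. In expected counts, which are not scaled to length, the LAMP-2A form (1769 bases) held 5571, 7190 and 10607 in replicates 1, 2 and 3. The LAMP-2B form (3604 bases) held 11702, 15162 and 27907, so the near equality by TPM rests on these lengths.

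**Figure D2:**
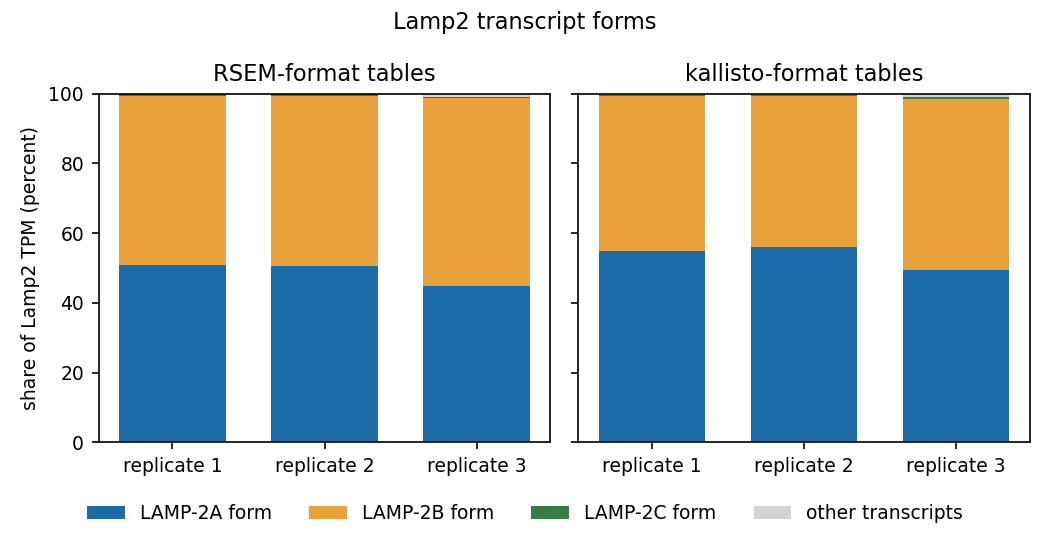
Share of Lamp2 TPM (percent) taken by each transcript form in replicates 1, 2 and 3, in the RSEM-format tables (left) and the kallisto-format tables (right). The LAMP-2A and LAMP-2B forms split nearly all of it, and the LAMP-2C form stays below 1% in both formats.

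Cd63 (ENSMUSG00000025351.14, chr10:128900989-128912822) encodes a tetraspanin of late endosomes, lysosomes and exosomes. It stood at 340, 259 and 272, below Laptm5 and above Npc2 in every library. Among 8 other tetraspanin genes, all detected in each library, the leukocyte gene Cd53 was highest at 273, 193 and 226, below Cd63 in each of the 3 libraries although the ranges overlapped. Cd9 (45.2 ± 7.21) and Cd81 (35.0 ± 4.46) lay well below. A processed pseudogene of the same sequence family, Cd63-ps, held 64.0, 156 and 287 expected counts against 13347, 18538 and 25336 for Cd63, and its fractional counts show that some reads were divided between genes.

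Scarb2 (ENSMUSG00000029426.8, chr5:92441314-92506833), for the receptor LIMP-2, lay between Npc1 and Mcoln1, at 40.9, 31.3 and 42.1. Of the same family, the scavenger receptor gene Cd36 was higher than Scarb2 (85.5, 102 and 154) and Scarb1 was lower (21.3, 19.3 and 16.6). Scarb2 did not overlap with either of them.

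The cholesterol exporters were unequal. Npc2 (ENSMUSG00000021242.9, chr12:84754562-84773152), for the soluble carrier, stood at 238, 180 and 185, and Npc1 (ENSMUSG00000024413.14, chr18:12189692-12236400), for the membrane transporter, at 72.8, 70.9 and 76.3. Every library of Npc2 lay above every library of Npc1. The Npc2 transcript model is mostly noncoding: 447 of its 3299 bases are coding and 2567 come after them, and its TPM rests on that length. By share of counts Npc2 (0.117 ± 0.0116%) was close to Cd68.

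The other genes of lysosomal cholesterol handling were mostly present. Of 17 on the list, Npc1 and Npc2 included, 16 were at a TPM of at least 1 in every library, beside 41.0% of protein-coding genes. The median TPM of the 17 was 18.3. Lipa, the acid lipase that frees cholesterol from its esters, was highest at 280, 214 and 278, above Npc2 in each library. Soat1, which re-esterifies cholesterol, stood at 170, 178 and 177, and the efflux transporter gene Abca1 at 101, 96.1 and 122. Gramd1b, for a sterol carrier at contacts with the endoplasmic reticulum, reached 24.8 ± 2.42 and its relative Gramd1a 6.96 ± 0.857, while Gramd1c had 9, 14 and 31 counts and a TPM of 0.12 or less. Npc1l1, the intestinal relative of Npc1, had 0, 0 and 1 counts, and the related gene Ptch1 (0.660 ± 0.120) was also below a TPM of 1.

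Npc1 was a member whose level depended on the tables. Its RSEM-format level includes a transcript annotated as retained intron (ENSMUST00000234044.1) at chr18:12189692-12195407. That transcript stood at 26.8, 26.1 and 25.8, or 36.8, 36.8 and 33.9% of Npc1 transcripts. In the kallisto-format tables it took 8.97, 6.34 and 6.14%. Of its 2219 bases, 2020 lie in exons of the main coding transcript and 198 in introns, so most of its reads could belong to either. The main coding transcript alone stood at 45.5, 44.2 and 48.9, or 0.553 ± 0.103 of Laptm4a, whereas the range of Npc1 as a whole overlapped that of Laptm4a. The kallisto-format TPM of Npc1 was 0.358 of its RSEM-format TPM, the lowest ratio of the 10; the other members reached up to 0.439 and the median of detected protein-coding genes was 0.445.

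The LAPTM genes encode small proteins of lysosomal and late endosomal membranes whose tails bind ubiquitin ligases of the NEDD4 family. Laptm5 (ENSMUSG00000028581.17, chr4:130913125-130936141), the form of blood cells, stood at 499.5, 408 and 438, below Cd68 and Lamp1 only. Laptm4a (ENSMUSG00000020585.4, chr12:8921664-8938742), which is broadly expressed, stood at 104, 75.4 and 76.9. Laptm4b, its closest relative, was far lower at 3.16, 2.77 and 2.55. The ranges of these 3 genes did not overlap. Laptm4a and Npc1 did overlap as neighbours, with Laptm4a the higher in all 3 libraries and a ratio between 1.01 and 1.43.

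Mcoln1 (ENSMUSG00000004567.16, chr8:3500457-3515232), for the calcium channel mucolipin-1, was the lowest member, at 17.92, 15.97 and 15.91. Its expected counts, 1275, 2220 and 3017, were also the fewest, which gives a counting error of 2.80% in replicate 1. The other mucolipin genes stood at similar or higher levels: Mcoln2 stood at 19.7, 15.9 and 16.8 and Mcoln3 at 30.5, 22.5 and 16.8. The ranges of Mcoln1 and Mcoln2 overlapped, and Mcoln3 was above Mcoln1 in all 3 libraries, by less than 1 TPM in replicate 3. Of the 11 annotated Mcoln1 transcripts, the main coding one took 74.97, 83.65 and 80.39% in the RSEM-format tables. It took 87.5, 86.9 and 67.9% in the kallisto-format tables, so the formats differed on the lowest library. A short coding fragment (ENSMUST00000208359.1) was given 14.5, 9.58 and 0.45% in the RSEM-format tables and 0% in the kallisto-format tables. All of its 577 bases lie in exons of the main one. Another short coding transcript (ENSMUST00000160338.1) was given 0% in the RSEM-format tables and 0, 4.11 and 14.2% in the kallisto-format tables.

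For 7 of the 10 members a single coding transcript took 98.0 to 100% of the gene's TPM. The 100% is that of Laptm4a, which has only 1 annotated transcript, so its share was fixed by the annotation. How many of all genes have such a transcript was not computed, so this count is a description and no trait of the members. The exceptions were Lamp2, Npc1 and Mcoln1. The leading transcript was the same in both formats for 9 members, Lamp2 being the other. Of Laptm5's 10 annotated transcripts, ENSMUST00000151698.7 took 99.1 ± 0.265%.

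Of the 9 neighbouring pairs in the order of TPM, 7 did not overlap between libraries. The order was Cd68, Lamp1, Laptm5, Cd63, Npc2, Lamp2, Laptm4a, Npc1, Scarb2 and Mcoln1, and the kallisto-format tables gave the same order for all 10. The kallisto-format levels themselves were lower throughout, 281 ± 24.4 for Cd68 and 7.06 ± 0.638 for Mcoln1. Among the deposited intervals of TPM, the widest spanned 21.5% of its value, for Mcoln1, and those of the other 9 spanned at most 4.59%.

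The wider set of lysosomal membrane genes lay lower. Of 48 other genes of that membrane, 45 reached a TPM of at least 1 in every library, beside 41.0% of protein-coding genes. The median TPM of the 48 was 15.9, near the level of Mcoln1. The highest was Litaf (195, 137 and 130), for a membrane-associated protein of late endosomes. It was followed by the peptide and histidine transporter gene Slc15a3 (106 ± 6.45), by Glmp (98.3 ± 8.48), by Slc11a1 (86.7 ± 12.0), the metal ion transporter known as NRAMP1, and by Lamtor1 (66.3 ± 10.3), an anchor of nutrient signalling. The 3 genes below a TPM of 1 in every library were Abcb9 (0.627 ± 0.0321), Abca5 (0.150 ± 0.0200) and Tmem74 (0.01 in each). The members were chosen with earlier results known, so their place above this set is a description.

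**Figure D3:**
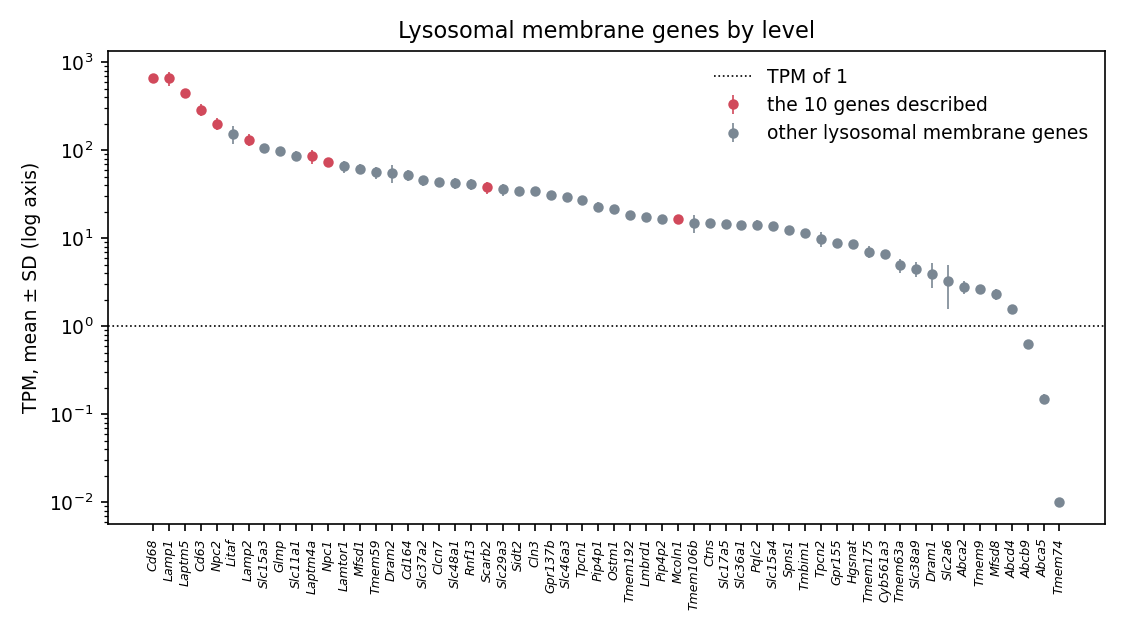
Mean TPM (log axis, bars are SD over 3 libraries) of the 10 genes described and of 48 other lysosomal membrane genes, ordered by level, with a dotted line at a TPM of 1. The first 5 places are held by Cd68, Lamp1, Laptm5, Cd63 and Npc2, and Mcoln1 lies among the middle of the others.

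Macrophage markers were present and those of other cell types were low. All 8 macrophage markers were detected, with a summed TPM between 4536 and 6606, led by Lyz2 (4792 ± 1020). Platelets and osteoclasts are also rich in lysosome-related membranes: the 4 platelet markers summed to between 0.240 and 0.300, the defining osteoclast markers Calcr and Dcstamp stood at a TPM of 0 (0, 0 and 1 counts) and 0.107 ± 0.0379, and Ctsk and Acp5 at 1.06 each. T cell, B cell, natural killer cell, erythroid, mast cell, dendritic cell and fibroblast markers were all below 1 in every library, and of the 6 neutrophil markers S100a8 (6.29 ± 0.295) and S100a9 (10.8 ± 0.307) were above it. The part of other cells in the members' levels was not tested; in RNA from many cells, fewer cells of a type and less RNA per cell cannot be told apart.

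Total expected counts were 26318761, 41897257 and 56290298 in replicates 1, 2 and 3. By TPM, 8 of the 10 were highest in replicate 1, beside 82.3% of detected protein-coding genes, a share close to that of the whole table. Replicate 2 was the lowest for 9 of the 10 (45.3%), and by kallisto-format TPM 5 were highest in replicate 1 (40.0%). Protein-coding genes took 26.2, 22.0 and 21.7% of TPM in the 3 libraries, highest in replicate 1 as most members were, and lowest in replicate 3, not replicate 2; its part was not tested.

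After TMM scaling of the counts, which removes such a common shift, 8 of the 10 were lowest in replicate 2, against 30.5% of the 12413 genes that passed the filter on low counts. The exceptions were Npc1 and Mcoln1, which were lowest in replicate 1 (34.1% of genes), and 0 were lowest in replicate 3 (35.5%). With DESeq2 size factors the count was also 8 (31.1%). With TPM rescaled over protein-coding genes it was 8 (29.8% of detected protein-coding genes), and with kallisto-format TPM it was 2 (7.65%). Members of 1 library share its preparation, and no test between libraries is possible here. The median deviation of the members was 0.02, -0.06 and 0.04 log2 CPM in replicates 1, 2 and 3, against medians of 0.0141, -0.000924 and -0.0139 for 3261 genes of the same range of level.

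The size of this spread varied among members. The SD of log2 CPM over the 3 libraries was smallest for Cd68 (0.03) and Laptm5 (0.04) and largest for Scarb2 and Lamp2 (0.21 and 0.20). Its median over the members was 0.11, beside 0.12 for all genes that passed the filter and 0.09 for genes of the same range of level. This order rests on single libraries: without replicate 1 the members' median was 0.0419, below both the 0.0687 of same-level genes and the 0.103 of all genes. Without replicate 3 it was 0.128, above the 0.0853 of all genes and the 0.0596 of same-level genes. Without replicate 2 it was 0.121, against 0.115 for all genes and 0.0837 for same-level genes. Scarb2 stood at 8.30, 8.15 and 8.56 log2 CPM and Lamp2 at 9.31, 9.08 and 9.48, both highest in replicate 3, as were 6 members in all (36.1% of genes). Lamp1 (11.41, 11.22 and 11.25), Cd63, Npc2 and Laptm4a were highest in replicate 1 (33.0% of genes), and no member was highest in replicate 2 (30.9% of genes were).

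**Figure D4:**
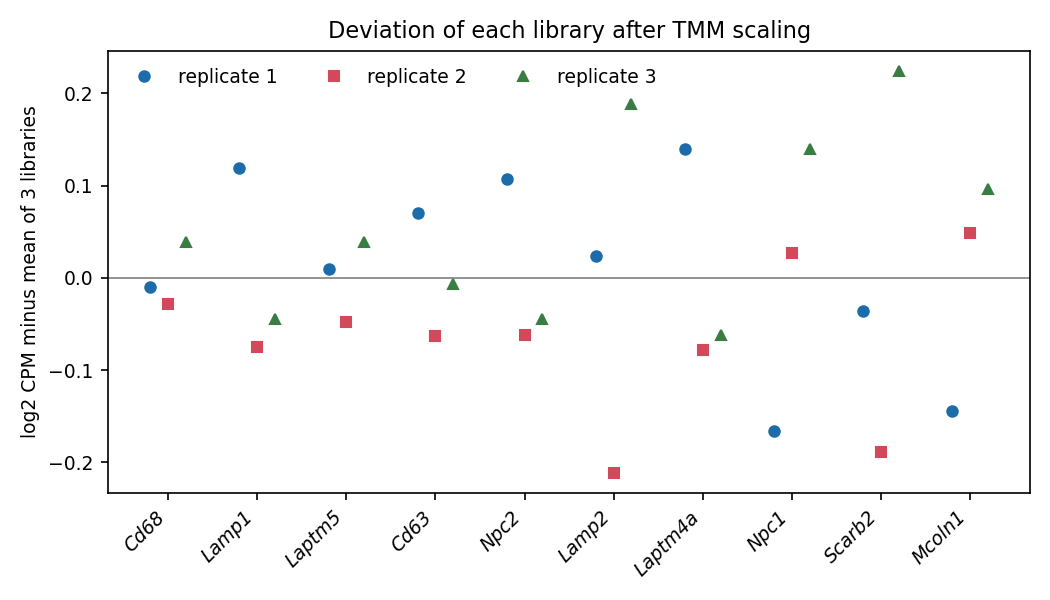
For each member, log2 CPM after TMM scaling in replicates 1, 2 and 3 (symbols) minus the member's own mean (line at 0). Replicate 2 is lowest for 8 of the 10 members, and the points of Lamp2 and Scarb2 lie farthest apart.

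Transcript length moved with the difference between replicates 3 and 1. Over genes of the members' range of level, the median difference in log2 CPM was -0.17 for the 521 genes with an effective length below 1500 bases, -0.06 for 1029 genes between 1500 and 3000 and 0.02 for 1711 longer genes. The long members Npc1 (0.31) and Scarb2 (0.26) had the largest positive differences, yet Npc2 (-0.15), also long by its model, was lower in replicate 3. Between 1500 and 3000 bases, Mcoln1 (0.24), Lamp2 (0.16) and Laptm5 (0.03) were higher, and Lamp1 (-0.16) and Laptm4a (-0.20) lower. Of the short members, Cd68 (0.05) was higher and Cd63 (-0.08) lower. The part of length in the members' differences was not tested.

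Transcripts annotated as retained intron took their highest share of the gene in replicate 3 for most members that have one. Of 7 such members, 6 had their highest share in replicate 3, beside 76.8% of 5690 detected genes, a share close to that of the table. The share in Lamp1 was 0.0635, 0.0566 and 0.190%, in Lamp2 0.0663, 0.0738 and 0.346%, in Cd63 0.0353, 0.0463 and 0.147% and in Mcoln1 6.64, 3.44 and 12.9%. The exception was Npc1 (37.1, 36.9 and 34.7%), most of which was the transcript described above. The median over the 5690 genes was 1.18, 0.988 and 3.97%. Kallisto-format tables gave the same 6 members (81.6% of genes).

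The nuclear noncoding RNAs Malat1 (224, 207 and 1008) and Neat1 (18.7, 16.7 and 92.5) were likewise highest in replicate 3, by TPM; they were looked up after the intron shares were seen. Outside Npc1 and Mcoln1, the largest share in replicate 3 was that of Npc2, at 2.00% in the RSEM-format and 4.32% in the kallisto-format tables. The part of nuclear RNA in the members' gene levels was not tested.

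**Figure D5:**
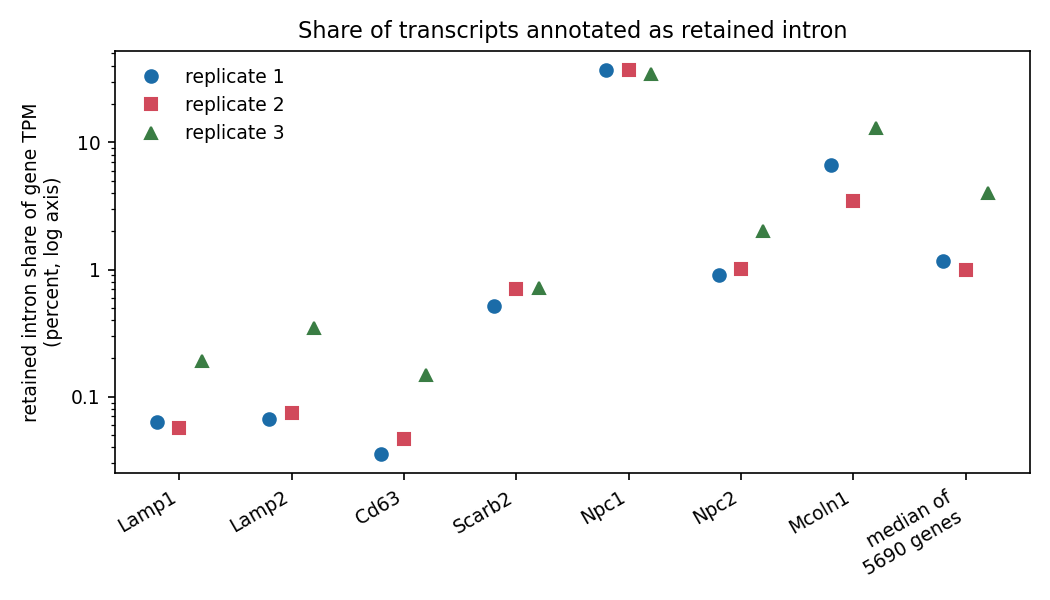
Share of gene TPM (percent, log axis) in transcripts annotated as retained intron, in replicates 1, 2 and 3, for the 7 members with such transcripts and for the median of 5690 genes. Replicate 3 is highest for all but Npc1, at 12.9% for Mcoln1 and 3.97% for the median gene.

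Genes that overlap a member in the annotation held few counts beside it. Grtp1 lies on the opposite strand over 3317 bases of the Lamp1 gene and held 166, 250 and 482 expected counts, against 74391, 99063 and 132893 for Lamp1. Rmc1, opposite Npc1 over 967 bases, held 577, 885 and 1307 counts against 13290, 23156 and 32890, and the antisense gene Gm15956 held 0, 3 and 7. Use of strand in counting was not given in the sources used here, so reads in these stretches cannot be assigned with certainty.

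Lysosomal genes are known targets of TFEB and related factors, which bind E-boxes with the core CACGTG. In RefSeq promoter windows (GRCm38.p6, 250 bases before to 50 after RefSeq's gene start), found for 9 members and not for Npc1, this core was present in Lamp1 and Mcoln1, beside 7.15% of 32851 windows. The longer CLEAR element, which extends this core on either side, was searched as an exact sequence only. That sequence was in none of the 9 (0.326% of windows). Forms with other flanking bases were not searched, so this does not show that any window lacks the element. The sequence GAGGAAG, searched on both strands, which resembles sites of the myeloid factor PU.1, was in Cd63 and Laptm5 (13.6% of windows). RefSeq's start lay within 100 bases of the start of the GENCODE gene given above for 5 of the 9 (Lamp1, Lamp2, Cd68, Npc2 and Mcoln1). It lay 191 bases away for Laptm5, 357 for Laptm4a, 1176 for Scarb2 and 8356 for Cd63, so for these 4 the letters searched are not those at the GENCODE start. The 80 bases before the start of Lamp1, which is the same in both annotations, are shown on the plus strand with the cores in capitals.
Lamp1: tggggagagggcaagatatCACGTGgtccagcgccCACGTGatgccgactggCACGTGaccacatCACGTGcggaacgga
They lie at chr8:13159081-13159160. Lamp1 holds 4 cores, a number reached by 8 of the 32851 windows (0.0244%), and Mcoln1 holds 2, reached by 195 (0.594%). RefSeq starts Mcoln1 62 bases downstream of GENCODE, so 1 of its cores lies before the GENCODE gene and 1 inside it. In level, Lamp1 was near the top of the members and Mcoln1 was the lowest, and Cd68, level with Lamp1, had no core in its window. The part of the cores in the members' levels was not tested. A match is a description, and its absence says only that these letters are not in the window.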

How the data were processed

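Ribosome-depleted total RNA of the cytosolic fraction was measured in 3 libraries. Each library has a gene table and a transcript table with RSEM's columns and another transcript table with kallisto's, per the file headers. No version of either tool was stated in the labels or headers. The labels give mm10 as the assembly, and notes deposited with the libraries name the M21 annotation. The authors deposited expected counts (estimated reads, which need not be whole), TPM, FPKM and, for each isoform, its percent of the gene. FPKM was not analysed.

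Members were found by symbol. Counts rounded to whole numbers were scaled by TMM in edgeR 4.0.16 (R 4.3.3) after its filter on low counts, with a prior count of 2. The computation of the SD over libraries was also run on simulated counts, without that filter. That run checked the computation only and was too coarse to tell apart SDs as close as those compared here. No test between groups was possible: with 1 group of 3 libraries, the smallest p of an exact sign-flip test is 0.25. Alternatives used DESeq2 1.42.0 size factors, other estimators and each library left out. Entries outside the gene annotation stayed out of totals and fits. The members, lists and motifs were chosen with earlier results of these data known. Named genes are the members, their families, the 5 highest and the undetected genes of the wider list, the cholesterol list, cell markers, and overlapping genes; Malat1 and Neat1 were added later, and some genes under this rule are not reported here. Intervals and floors cover counting error only.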

Additional observations from a re-analysis of the deposited data

How the results depend on the processing

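Across 27 results, 134 alternative values were computed, and 105 moved by no more than a set bound. The bound was the SD between libraries, 1.5 times for counts of genes or pairs, and the SD over members for the median SD. Leaving out a library cannot move a mean over the libraries by more than their SD. Such values had to count as unmoved, so the 105 is no measure of stability. The scale of the level mattered most. The members' median TPM of 167 became 71.3 with kallisto-format TPM and 715 with TPM over protein-coding genes only, and lay between 153 and 178 when a library was left out. Their share of expected counts, 0.926%, was 1.09% of the counts of protein-coding genes, and lay between 0.894 and 0.951% with a library left out. The median SD of 0.113 log2 CPM became 0.215 on the log2(TPM + 1) scale. It lay between 0.0419 and 0.128 with a library left out, the lowest value being without replicate 1. Posterior mean estimates, DESeq2 size factors, library size alone, a prior count of 0.5 and no filter on low counts moved none of the results they were applied to. Of the single results, the leading transcript share moved for Lamp2 (45.5%), Npc1 (89.8%), Npc2 (98.0%) and Laptm5 (98.5%) with kallisto-format TPM. The number of neighbouring pairs that do not overlap was 7 or 8 throughout. Of the other lysosomal membrane genes 37 to 45 were detected, the fewest at a TPM of at least 5. Leaving out a library cannot lower the number detected, nor, with the order unchanged, the number of such pairs. Depth limits mainly Mcoln1's minor transcripts, the retained intron transcripts of other members such as Lamp1, Lamp2 and Cd63, and the genes near 0.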
